A study of Mus musculus with 16 samples.

Results

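AP_26 is a small cluster of stromal cells from mouse brown adipose tissue that the authors named, with AP read here as adipocyte progenitor. Its members are the cells that carry this name in the authors' annotation of named cells: 249 of 24352 named cells, 249 of the 2514 cells whose name begins with AP, and 249 of 109723 cells in all. Single-cell RNA sequencing libraries were made from the stromal vascular fraction of interscapular brown fat of C57BL6J mice. The mice were kept at 30 °C (thermoneutral), at 22 °C (room temperature), or at 5 °C for either 2 or 7 days, with 4 libraries per condition. The comparison asks how the cells around brown adipocytes change in the cold. Fat cells were floated off and dead cells removed before sequencing in every group. The labels give neither sex nor age, and do not say whether the libraries of a group came from separate mice, so the p-values below measure the spread between libraries, part of which may be technical.

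Adipocyte progenitors are fibroblast-like cells of the fat stroma. They lie along vessels and in the connective tissue, divide, and can mature into adipocytes when fat has to grow. In brown fat, cold reaches the tissue through sympathetic nerves, and new brown adipocytes can arise from stromal cells as well as from existing fat cells. Pdgfra, Cd34 and Dcn are the usual markers. Pdgfra encodes platelet-derived growth factor receptor alpha, Cd34 a surface glycoprotein of many stem and stromal cells, and Dcn the matrix proteoglycan decorin. Gene values were not analysed here, so the name AP_26 was not checked against these markers, and the cluster is described by its numbers, its place in the clustering and the depth and quality of its cells.

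AP_26 was set apart from the other AP clusters at coarser settings than these were from each other. When the authors clustered the named cells at resolution 0.1, the coarsest setting, with 12 clusters, all 249 AP_26 cells formed a cluster that held no other cell. At the same setting AP_8, AP_9 and AP_25, the other AP clusters, shared 1 cluster of 2266 cells, which also held 1 cell of another name. From resolution 0.4 to 1.8, a range of 18 to 38 clusters, AP_26 was again a cluster of 249 cells with no cell added or lost. Nearly all AP_8 cells parted from AP_9 and AP_25 at resolution 0.6, and AP_9 parted from AP_25 at 0.8. The names themselves were given at resolution 1.2, so the separation at other settings describes the same genes and is no independent test.

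Clustering of all cells gave another picture at coarse settings. From resolution 0.1 to 0.8 the 249 AP_26 cells lay in a single cluster of 2775 cells with 1001 AP_8, 992 AP_9 and 271 AP_25 cells. It also held 239 cells without a name and 10 EC_23 cells. From resolution 1 onward a cluster of 287 or 288 cells parted from it and held nearly all of AP_26, while AP_8, AP_9 and AP_25 remained in 1 cluster up to 1.8. At resolution 1.8 this was cluster 48, with 288 cells: 247 of AP_26, 21 of AP_9, 1 of EC_23 and 19 without a name. The other 2 AP_26 cells were in cluster 13 with the remaining AP cells. In both annotations AP_26 was thus the first of the 4 AP clusters to be separated.

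**Figure D1:**
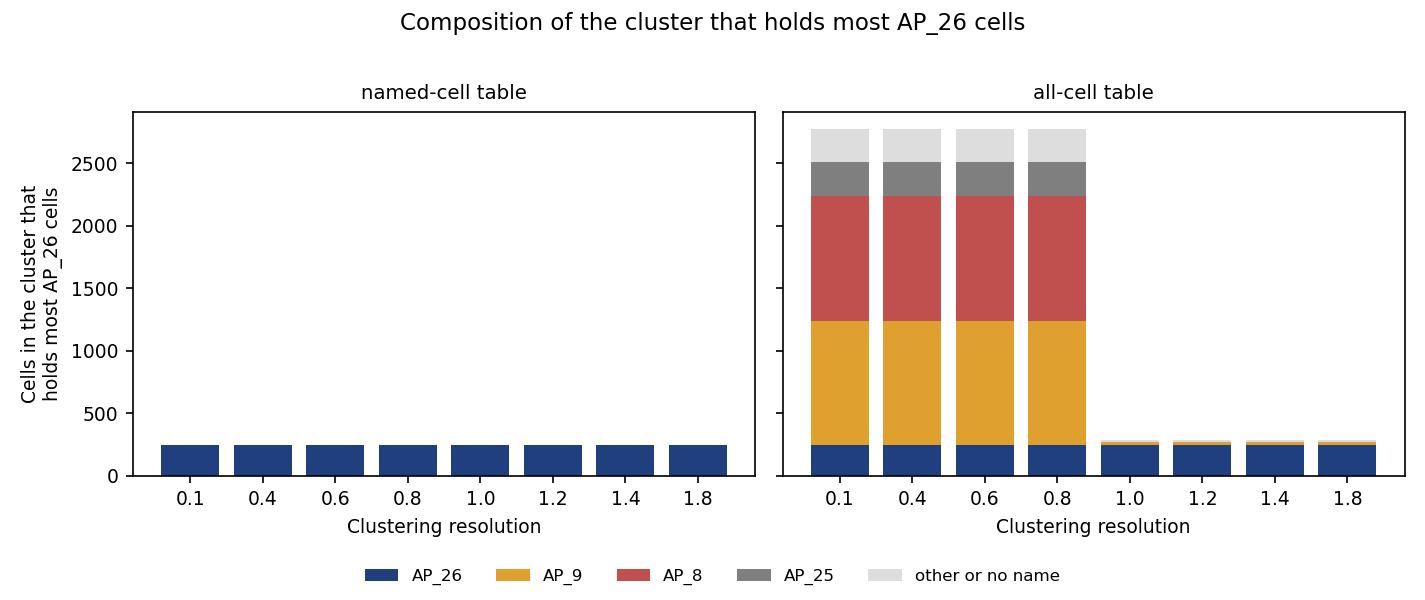
Bars give the number of cells in the cluster that holds most AP_26 cells, at 8 clustering resolutions (x axis) of the named cells (left) and of all cells (right), coloured by the name of the cell. Among named cells the bar is 249 AP_26 cells throughout; among all cells it falls to 287 or 288 cells at resolution 1 and above, against 2775 at coarser settings.

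Each of the 15 libraries with named cells held AP_26 cells, 3 to 43 per library, and no library gave more than 17.3% of them. Replicate 1 of 2-day cold has no named cells and enters only the values over all cells. Libraries held 1473 to 10005 cells, of which 357 to 3739 were named, with a median of 1978.5 to 9819 unique molecules (UMIs) per cell. Libraries numbered 3 and 4 were shallower than those numbered 1 and 2. Their median UMIs per cell averaged 2788 ± 514 against 5461 ± 2124 (mean of library medians ± SD, 8 libraries each). Differences in the AP_26 share of named cells are therefore also given separately for each pair of numbers. No cell barcode occurred in more than 1 AP_26 cell, and 4 of the 249 barcodes were also present in another library, on cells without an AP name.

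As a share of named cells, AP_26 cells were most frequent after 7 days at 5 °C. The number of named cells also differed between groups. Libraries averaged 733 ± 257 named cells in 7-day cold (SD, n = 4) and 2060 ± 498 in 2-day cold (n = 3). At 22 °C they averaged 1756 ± 1115 and at 30 °C 2054 ± 1396 (n = 4 each). At 30 °C AP_26 cells were 0.374%, 0.749%, 0.794% and 0.156% of the named cells in replicates 1 to 4. At 22 °C the shares were 0.178%, 0.357%, 2.04% and 0.840%. After 2 days at 5 °C replicates 2, 3 and 4 had 0.872%, 2.80% and 0.754%. After 7 days at 5 °C the shares were 1.91%, 2.90%, 2.45% and 3.83% in replicates 1 to 4. All 4 libraries of 7-day cold lay above all 4 thermoneutral libraries, while replicate 3 at 22 °C and replicate 3 of 2-day cold reached into the 7-day range. Counts per library were small: the 95% Wilson interval ran from 0.0609% to 0.402% for the lowest library, thermoneutral replicate 4 with 4 AP_26 cells, and from 2.44% to 5.97% for the highest, 7-day replicate 4 with 18. These intervals cover counting error alone.

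**Figure D2:**
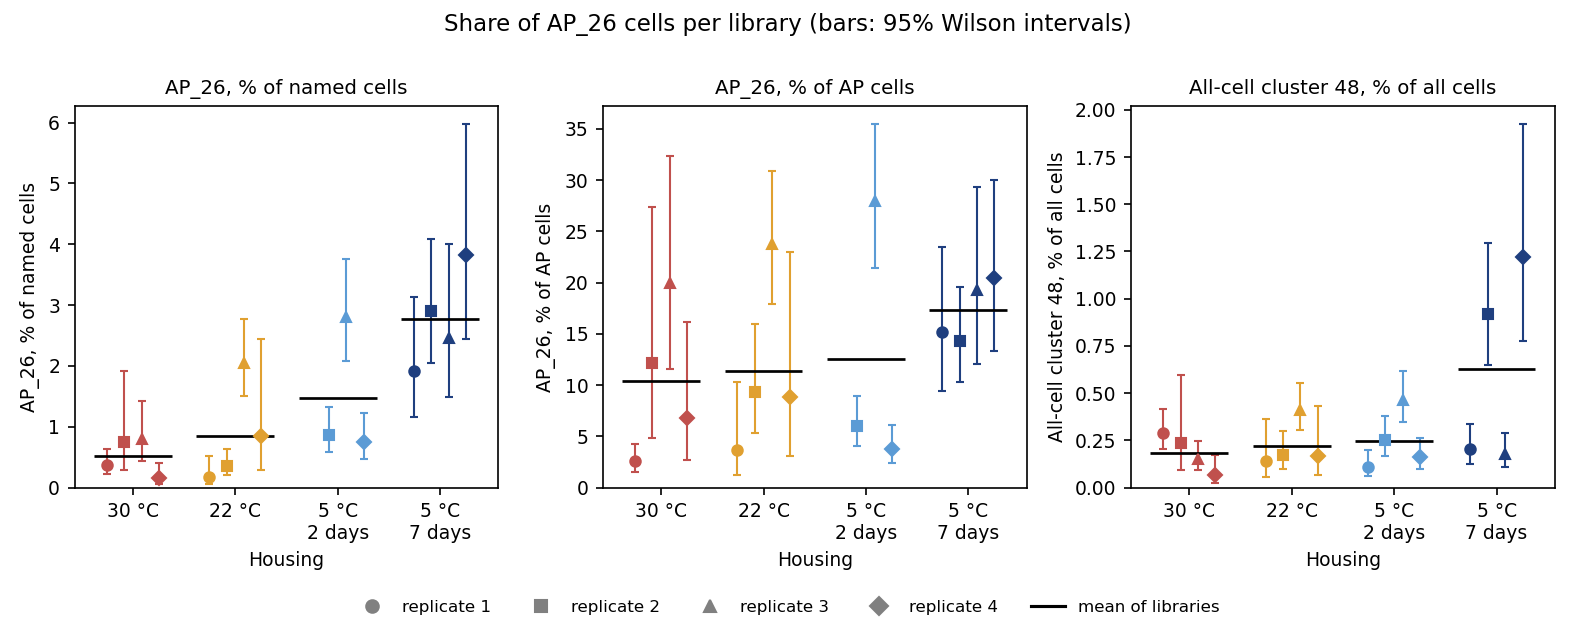
Share of AP_26 cells in each library as percent of named cells (left) and of AP cells (middle), and share of all cells in cluster 48, which holds 247 of the 249 AP_26 cells (right), by housing on the x axis; markers are replicates, vertical bars 95% Wilson intervals and horizontal lines means of libraries. The 7-day libraries sit between 1.91% and 3.83% of named cells, above the thermoneutral range of 0.156% to 0.794%, but overlap it in the other panels.

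The share of named cells rose to 2.78% ± 0.811 in 7-day cold, against 0.518% ± 0.306 at thermoneutrality (SD, n = 4 each). In limma, fitted to all clusters of sufficient size, the log2 odds ratio was 2.60 ± 0.72 (SE, adjusted p = 0.0163). In that comparison 10 of 27 clusters passed, 37% of those tested, so a call by itself was common, and AP_26 had the sixth highest estimate, between AP_25 (2.60) and VSM_21 (2.49). Of the 10 calls, 9 were higher in 7-day cold, and the median estimate over the 27 clusters was 0.68. Taken apart by replicate number, the estimate was 2.11 in numbers 1 and 2 and 3.09 in numbers 3 and 4. The call ended without thermoneutral replicate 4, the library with the fewest AP_26 cells per named cell, at 2.12 ± 0.74 (limma, adjusted p = 0.0663). It also ended with all cells as denominator, at 1.77 ± 0.76 (limma, adjusted p = 0.110), and with the VSM clusters, read here as vascular smooth muscle, left out of the denominator, at 1.81 ± 0.73 (limma, adjusted p = 0.0844).

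The other 3 AP clusters also had positive estimates in 7-day cold against thermoneutral housing. AP_8 rose to 5.93% ± 3.19 of named cells in 7-day cold, against 1.99% ± 1.82 at thermoneutrality, a log2 odds ratio of 1.84 ± 0.61 (limma, adjusted p = 0.0290). AP_25 had 1.48% ± 0.719 against 0.588% ± 0.889, with 2.60 ± 1.00 (limma, adjusted p = 0.0501), and AP_9 5.93% ± 2.23 against 3.68% ± 2.90, with 1.02 ± 0.61 (limma, adjusted p = 0.162). The lowest AP_25 share at thermoneutrality was 0%, so the AP_25 estimate depends in part on the 0.5 cells added. Of the 4 AP clusters, 2 thus passed and 2 did not. VSM-AP_6, whose name joins smooth muscle and AP, had 4.16% ± 1.55 in 7-day cold against 5.29% ± 2.23 at thermoneutrality, with -0.32 ± 0.47 (limma, adjusted p = 0.539).

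No other pair of housing conditions gave a call for AP_26. In 2-day cold the cluster held 1.48% ± 1.15 of named cells (SD, n = 3), against 0.518% ± 0.306 at thermoneutrality (n = 4), a log2 odds ratio of 1.44 ± 0.78 (limma, adjusted p = 0.195). Without 2-day replicate 3 this estimate was 0.84, and it was 0.65 in replicate numbers 1 and 2 and 1.98 in 3 and 4. In that comparison 3 of 27 clusters passed (11.1%). In 7-day cold against room temperature, where the share was 0.855% ± 0.839 (n = 4), the log2 odds ratio was 2.16 ± 0.72 (limma, adjusted p = 0.0718), the second highest of 27 behind Schwann_14 (2.47), and 2 of 27 clusters passed (7.41%). It was 3.14 among replicates numbered 1 or 2 but 1.17 among those numbered 3 or 4, and the call was made without room-temperature replicate 3, at 2.74 ± 0.70 (limma, adjusted p = 0.0109). A covariate for the deeper and shallower replicate numbers also brought the call (limma, adjusted p = 0.0252).

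The remaining estimates were closer to 0. Room temperature against thermoneutral housing gave 0.44 ± 0.72 (limma, adjusted p = 0.748), with opposite signs in replicate numbers 1 and 2 (-1.04) and in 3 and 4 (1.91). The 2-day cold against room temperature gave 1.00 ± 0.78 (limma, adjusted p = 0.383), with 1.68 in numbers 1 and 2, 0.067 in 3 and 4, 0.40 without 2-day replicate 3 and 1.58 without room-temperature replicate 3. The 7-day against 2-day cold gave 1.16 ± 0.78 (limma, adjusted p = 0.549), with 1.46 in numbers 1 and 2, 1.11 in 3 and 4, and 1.76 without 2-day replicate 3. In each of these 3 comparisons limma called 0 of 27 clusters (0%), as did edgeR; before adjustment 1, 3 and 2 clusters had a limma p under 0.05. Over all 4 groups in 1 F test, 3 of 27 clusters passed (11.1%) and AP_26 did not (limma, adjusted p = 0.0567).

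**Figure D3:**
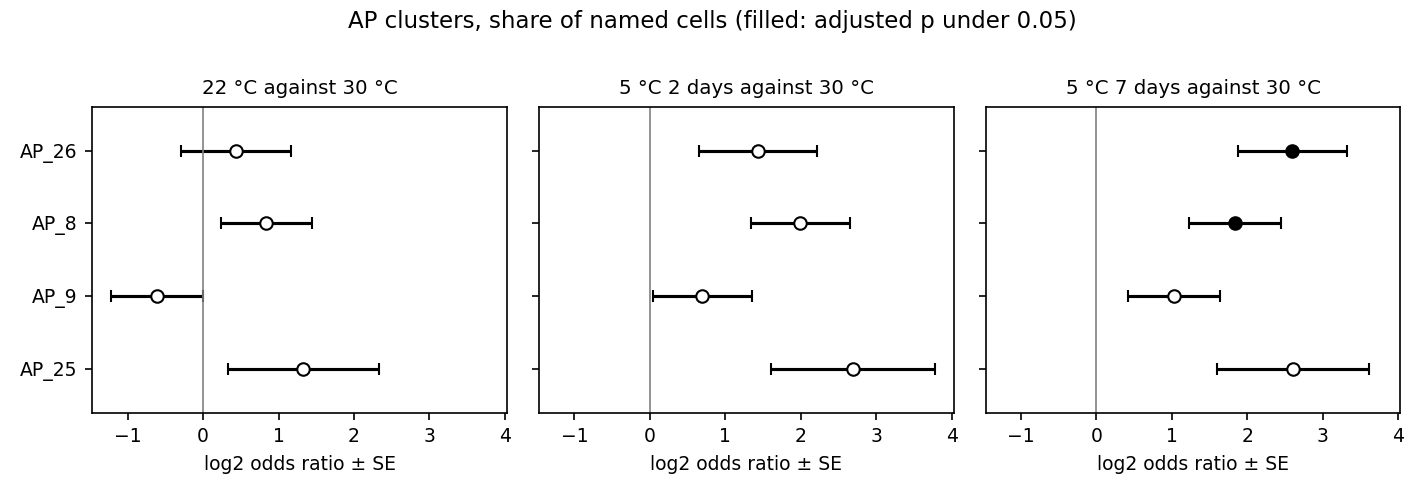
Log2 odds ratios with standard errors (x axis) of the 4 AP clusters (rows) as shares of named cells, for room temperature, 2-day cold and 7-day cold, each against thermoneutral housing; filled circles passed an adjusted p of 0.05 in limma. AP_26 lies at 0.44, 1.44 and 2.60, and passed in 7-day cold alone; whether its estimates differ between the panels is given by the direct comparisons of those groups, none of which passed.

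Among AP cells the place of AP_26 was less clear. At 30 °C it made up 2.55%, 12.1%, 20.0% and 6.78% of the AP cells in replicates 1 to 4, and at 22 °C 3.70%, 9.32%, 23.8% and 8.82%. After 2 days at 5 °C the shares were 6.03%, 27.9% and 3.8% in replicates 2, 3 and 4. After 7 days at 5 °C they were 15.2%, 14.3%, 19.2% and 20.5% in replicates 1 to 4. The 7-day libraries were the closest to each other, and in each of the other groups replicate 3 was the highest, so that the groups overlap. Thermoneutral replicate 2 and room-temperature replicate 4 had 33 and 34 AP cells, with 95% Wilson intervals of 4.82% to 27.3% and 3.05% to 23.0%, wider than the differences between group means.

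The share of AP cells averaged 17.3% ± 3.02 in 7-day cold and 10.4% ± 7.52 at thermoneutrality (SD, n = 4 each). The log2 odds ratio was 1.13 ± 0.72, with an exact two-sided permutation p of 0.143 and an adjusted p of 0.571 over 6 comparisons. Against room temperature, at 11.4% ± 8.63, it was 0.89 ± 0.60 (exact permutation p = 0.20, adjusted p = 0.571), and against 2-day cold, at 12.6% ± 13.3 (n = 3), 1.06 ± 1.00 (exact permutation p = 0.286, adjusted p = 0.571). The smallest unadjusted p this test can give is 0.0286 with 4 libraries against 4 and 0.0571 with 4 against 3. The other 3 comparisons, none involving 7-day cold, had estimates from -0.17 to 0.24 with adjusted p-values of 0.971 (exact permutation). After adjustment over 6 comparisons it cannot go below 0.0571, so this test could not have given a call. A limma model of the 4 AP clusters as shares of AP cells, which could have, gave the same 1.13 for 7-day cold against thermoneutral housing (adjusted p = 0.246), and AP_26 passed in none of the 6 comparisons there. Whether AP_26 and the remaining AP clusters responded differently to housing was thus not settled with these libraries. The 1.13 was 1.45 in replicate numbers 1 and 2 and 0.81 in 3 and 4. With thermoneutral replicate 1 left out it was 0.52, with replicate 3 of that group left out 1.60, and with VSM-AP_6 in the denominator 1.89. Against room temperature the estimate was 1.35 in numbers 1 and 2, 0.44 in 3 and 4, and 0.44 without room-temperature replicate 1; against 2-day cold it was 2.03 without 2-day replicate 3 and 0.40 without 2-day replicate 4. Beside AP_26, AP_9 made up 37.3% ± 11.4 of AP cells in 7-day cold and 53.4% ± 8.11 at thermoneutrality, and AP_8 35.7% ± 11.6 and 30.7% ± 12.3.

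As a share of all cells the libraries of 7-day cold fell into a high and a low pair. Cluster 48 held 0.204%, 0.918%, 0.175% and 1.22% of all cells in 7-day replicates 1 to 4, against 0.290%, 0.233%, 0.150% and 0.0668% in thermoneutral replicates 1 to 4. Replicates 2 and 4 of 7-day cold lay above all thermoneutral libraries, and replicates 1 and 3 within their range. The split was not particular to cluster 48. The whole AP-rich cluster of 2775 cells held 1.43%, 6.37%, 0.957% and 6.59% of all cells in 7-day replicates 1 to 4. Cluster 48 made up 14.3%, 14.4%, 18.3% and 18.6% of that cluster in these libraries. The high pair came from the smaller libraries, with 3484 and 1473 cells, against 7355 and 8570 cells for replicates 1 and 3. The part of library size in this difference was not tested. In thermoneutral replicate 1, 14 of the 29 cells of cluster 48 were named AP_9, a share seen in no other library, so the cluster is a looser definition there.

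Cluster 48 averaged 0.630% ± 0.524 of all cells in 7-day cold and 0.185% ± 0.0975 at thermoneutrality (SD, n = 4 each), with a log2 odds ratio of 1.41 (limma, adjusted p = 0.233), which was 0.93 without 7-day replicate 4. Over the 55 clusters of all cells tested, limma called 0 in that comparison (0%), as did edgeR, and before adjustment 8 had a limma p under 0.05. Replicate 1 of 2-day cold, which has no AP_26 cells by name, held 11 cells of cluster 48, or 0.110% of its cells, against 0.251%, 0.462% and 0.160% in 2-day replicates 2, 3 and 4. With that library the 2-day estimate against thermoneutral housing was 0.33 (limma, adjusted p = 0.835), in a comparison where 5 of 55 clusters passed (9.09%). It was 0.64 without it. Cluster 48 did not pass in the remaining comparisons either, with estimates of 0.33 for room temperature against thermoneutral housing, 1.09 for 7-day cold against room temperature, 0.01 for 2-day cold against room temperature and 1.08 for 7-day against 2-day cold. With 1 library left out, the 7-day estimates of cluster 48 were 0.93 to 1.87 against thermoneutral housing, 0.60 to 1.54 against room temperature and 0.59 to 1.53 against 2-day cold, each lowest without 7-day replicate 4. With all libraries, limma called 0 of 55 clusters (0%) both for room temperature against thermoneutral housing and for 7-day cold against room temperature. There edgeR also made 0 calls, and before adjustment 1 and 10 clusters had a limma p under 0.05. For 2-day cold against room temperature limma called 3 of 55 (5.45%), and for 7-day against 2-day cold 1 (1.82%).

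The cells of AP_26 were shallower than those of the other AP clusters. Their median was 3333 UMIs and 1438 detected genes per cell, against 5161 UMIs and 1850 genes in AP_8, 5973 and 2220.5 in AP_9, and 7616 and 2505 in AP_25. AP_26 cells ranged from 819 to 22095 UMIs, and 6.02% had more than 10000, against 21.9% of the other AP cells. The order held within libraries: the AP_26 median was below that of the other AP cells in 14 of 15 libraries. The exception was 7-day replicate 4, with 4909 UMIs in AP_26 and 1980.5 in the other AP cells. Since clusters were drawn from the same transcripts, this is a description and was not tested. Among cells with 2000 to 5000 UMIs, AP_26 had a median of 1370 genes at 3038 UMIs. In the same window AP_8 had 1407 genes at 3280.5 UMIs, AP_9 1501 at 3388 and AP_25 1481.5 at 3502. Both medians were again lowest in AP_26, so the window did not make depth equal. Whether AP_26 cells had fewer genes at like depth was not tested.

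Mitochondrial transcripts, a common sign of damaged cells when high, were few in AP_26. The median share was 2.62% of UMIs, the highest cell had 11.9%, and no cell reached 20%. In AP_8, AP_9 and AP_25 the medians were 1.67%, 2.15% and 1.8%, with 1, 22 and 1 cells at 20% or more. In VSM-AP_6 66.5% of cells were at 20% or more. Within libraries the AP_26 median was above that of the other AP cells in 11 of 15. With such cells left out of all clusters, the log2 odds ratio of AP_26 as a share of named cells in 7-day cold against thermoneutral housing was 2.66 (limma, adjusted p = 0.00936). The filter removed no AP_26 cell.

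**Figure D4:**
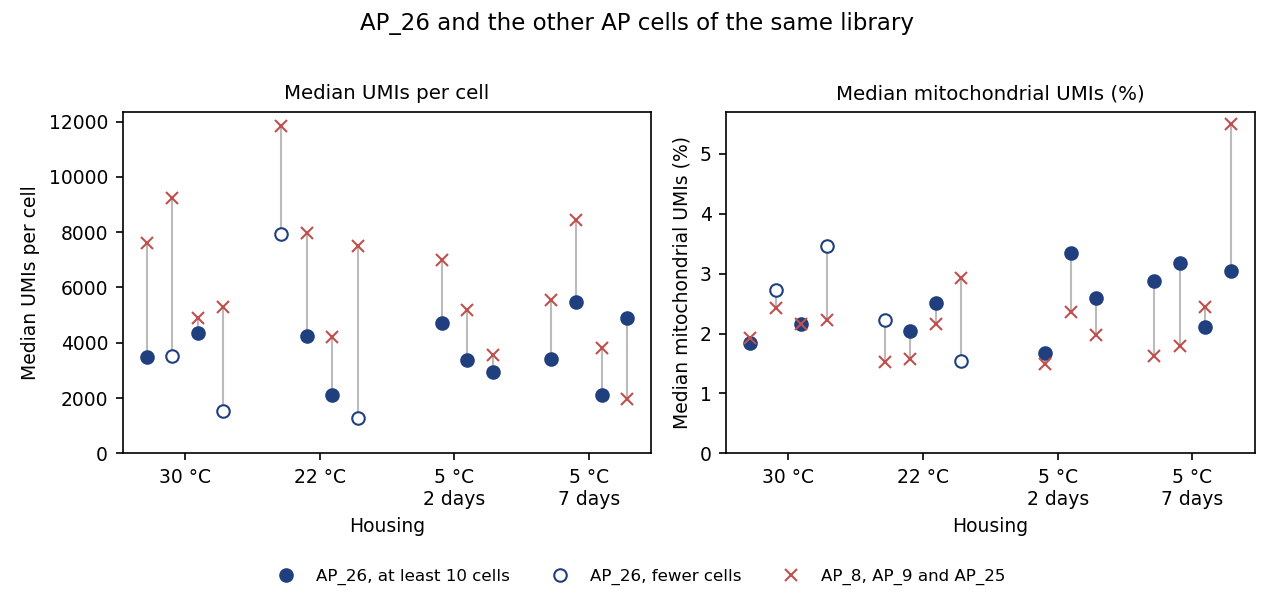
Median UMIs per cell (left) and median percent of UMIs from mitochondrial genes (right) of AP_26 cells (circles, open where a library has fewer than 10 of them) and of AP_8, AP_9 and AP_25 cells together (crosses), joined within each library and ordered by housing. AP_26 lies below the other AP cells in UMIs in 14 of 15 libraries, with 7-day replicate 4 as the exception.

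Depth and quality of AP_26 cells were compared between housing conditions over the 11 libraries with at least 10 such cells. Median UMIs were 3419, 5458, 2118 and 4909 in replicates 1 to 4 of 7-day cold, against 3485 and 4366 in thermoneutral replicates 1 and 3. The thermoneutral values lay inside the 7-day range. Median mitochondrial shares were 2.11% to 3.18% in 7-day cold and 1.85% to 2.16% in the thermoneutral pair, and these ranges overlap. Over 5 measures and 6 comparisons, 30 tests in all, none had an exact permutation p below 0.0571 or an adjusted p below 0.857. With 2 to 4 libraries a group no test here could reach 0.05.

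The cell cycle phase that the authors called for AP_26 cells depended on which annotation was read. In the annotation of named cells 49.8% of AP_26 cells were called S or G2M, against 45.4%, 42.0% and 46.9% in AP_8, AP_9 and AP_25. In the annotation of all cells 14.9% of the same AP_26 cells were called S or G2M, and the calls were equal for 64.3%. In the annotation of named cells, 53.3% to 66.7% of AP_26 cells per library were called S or G2M in 7-day cold, against 31.8% to 48.8% in 2-day cold. In the annotation of all cells the order was the opposite, with 0% to 6.67% in 7-day cold and 13.6% to 25% in 2-day cold. Neither pair of ranges overlaps, and in both the exact permutation p was 0.0571, as small as 4 libraries against 3 allow, and 0.857 after adjustment. Differences were not limited to the cold groups. In the annotation of all cells the mean was 31.6% at room temperature and 3.57% at thermoneutrality (n = 2 each, libraries with at least 10 AP_26 cells). It was 3.33% in 7-day and 18.3% in 2-day cold. In the annotation of named cells the means were 50.9%, 41.6%, 58.7% and 41.5% in the same order. The libraries left out held 3 or 4 AP_26 cells each. In the annotation of all cells they had 0% and 33.3% in room-temperature replicates 1 and 4. Thermoneutral replicates 2 and 4 had 0% and 50%, so the difference between these 2 groups rests on few libraries. The highest G2M score of any AP_26 cell in the annotation of named cells was 0.0921, against 1.34 in AP_8, 0.747 in AP_9 and 1.01 in AP_25, so no AP_26 cell had the high score that single cells of the other AP clusters reached. No cycling is read from these calls.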

How the data were processed

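The deposited annotations describe the cells of 16 droplet libraries (10x Chromium 3′ v3, per the labels' protocols). STAR and Cell Ranger 3.0.1 with mm10 are named in the submitters' processing notes; how cells were filtered and clustered, and whether doublets were removed, is not given in the sources used here. UMI and gene counts per cell are whole numbers deposited by the authors without normalisation. The mitochondrial fraction per cell, deposited by the authors on a scale of 0 to 1, is printed in percent. The authors also deposited phase scores, phase calls, cluster numbers and cluster names. The authors' deposited ratio of log10 genes to log10 UMIs was not used.

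Libraries were the replicates. Shares of named cells became log2 odds, with 0.5 cells added to each side, and entered a limma 3.58.1 model (R 4.3.3) of all 4 conditions for 27 of 28 clusters, those averaging 10 or more cells in a library. The same was done for clusters of all cells at resolution 1.8. P-values are two-sided and Benjamini-Hochberg adjusted within a comparison, with a threshold of 0.05. The share of AP cells and the depth and quality medians were compared by exact permutation (scipy 1.17.1). Replicate numbers were checked as pairs by correlating the deviations of same-numbered libraries from their group means: all 3 pairs were above 0.1 only for 2-day cold and room temperature (0.39 to 0.46), where a replicate block gave AP_26 a log2 odds ratio of 0.74 and no call. edgeR 4.0.16 and DESeq2 1.42.0 (mean dispersion trend) on cell counts were alternatives. The limma step was also run on simulated data. Libraries and clusters were drawn independently there, with no effect of replicate number or depth per cell, so that run is no support for the AP_26 call. No doublet caller was run, and no thinning to 1 depth was done, since gene values were not analysed here. The cluster, the comparison clusters (AP_8, AP_9, AP_25, VSM-AP_6, the neighbours of AP_26 in rank and each cluster of all cells with at least 10% of its cells) and the alternatives were chosen with earlier results of these data known.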

Additional observations from a re-analysis of the deposited data

Results flagged for a closer look

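Of 22 groups of 4 libraries examined, 2 held a library whose gap to the nearest other library took an unusually large part of the group's range; chance flags about 1 in 20 such groups. Room-temperature replicate 3 had 0.410% of all its cells in cluster 48, against 0.141% to 0.172% in the other room-temperature libraries. In 2-day cold, replicate 3 had 28.0% of the AP-rich cluster of 2775 cells in cluster 48, against 3.54% to 7.14% in the other 2-day libraries. Both are replicate 3, and the AP_26 share of AP cells was highest in replicate 3 at thermoneutrality as well. What replicate 3 libraries share is not stated in the labels.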

How the results depend on the processing

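The higher share of named cells in 7-day cold against thermoneutral housing kept its direction in all alternatives tried and its call in 27 of the 30 with a test across clusters. It was 1.77 with all cells as denominator, 1.81 without the VSM clusters in the denominator and 2.12 to 2.88 with 1 library left out. For 7-day cold against room temperature (likewise 1.62 to 2.74) the call was made at 2.16 both with a replicate block (limma, adjusted p = 0.0252) and with the covariate for replicates 1 and 2, and at 2.14 without cells of 20% or more mitochondrial UMIs (limma, adjusted p = 0.0498). The replicate block changed no other call of AP_26; same-numbered libraries correlated above 0.1 in 12 of 21 pairs (-0.30 to 0.65), so outside the comparison of 2-day cold with room temperature the numbers were not taken as pairs. Room temperature against thermoneutral housing gave -0.029 with centred log ratios, -1.04 and 1.91 within the pairs of numbers, and -0.14 to 0.97 with 1 library left out.

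As a share of AP cells both limma fits gave no call; the other alternatives used the permutation test, which could not give one after adjustment. With 1 library left out the 7-day estimates were 0.52 to 1.60 against thermoneutral housing, 0.44 to 1.38 against room temperature and 0.40 to 2.03 against 2-day cold. Estimates changed sign for 2-day cold against thermoneutral housing (-0.31 with limma and a replicate block, -0.90 to 0.73 with 1 library left out), for 2-day cold against room temperature (a difference of 1.18 percentage points on the percent scale, 0.60 with VSM-AP_6 in the denominator, -1.14 to 0.49 with 1 library left out) and for room temperature against thermoneutral housing (-0.37 to 0.71). As a share of named cells, 2-day cold gave 0.84 to 1.79 against thermoneutral housing and 0.40 to 1.58 against room temperature with 1 library left out, and 7-day against 2-day cold 0.81 to 1.76. For cluster 48 it was -0.067 to 0.64 in 2-day cold against thermoneutral housing, -0.36 to 0.32 in 2-day cold against room temperature and -0.077 to 0.58 in room temperature against thermoneutral housing. With the AP-rich cluster as denominator, chosen after seeing the data, the first 2 were -0.41 and -0.46. The difference in median mitochondrial share, 7-day cold minus thermoneutral, was 0.797 percentage points and -0.00305 after subtracting the other AP cells. The cause of these changes was not tested.

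The number of named clusters called in 7-day cold against thermoneutral housing was 0 to 17 over the alternatives, against 10. It was 0 to 7 in 2-day cold against thermoneutral housing, against 3, and 0 to 8 in 7-day cold against room temperature, against 2. Too few AP_26 cells, 35 of 249, lay at or above the median UMI count of named cells for the planned test there. With 3 to 43 AP_26 cells per library, counting error is large.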
